A study of Homo sapiens with 9 samples.

Results

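The acute phase and complement genes encode plasma proteins that the liver makes and that change or act in inflammation. Their transcripts were followed here on 9 Affymetrix 3′ expression arrays of HepG2 cells, an established hepatoma line of human origin with many traits of hepatocytes. The genes were a list of 37 symbols, each read by the brightest of its probe sets over the 9 arrays. Of these, 36 had a probe set assigned to that gene alone, out of 19775 genes measured in all. ORM2 is paired with ORM1 on its probe sets and was left out of the tests. The 3 groups of 3 arrays came from cultures with the vehicle DMSO or with 100 nM GW7647, taken at 6 h or at 24 h of the agonist. GW7647 is a synthetic agonist of PPARα, a nuclear receptor that fatty acids activate. All groups were grown in medium with serum and without phenol red, and the labels name no cytokine or other inflammatory stimulus. How long the vehicle cultures were kept is not stated, so exposure to GW7647 and time in culture cannot be told apart. In a bulk culture, fewer cells making a transcript and less transcript per cell cannot be told apart either.

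In the acute phase response, interleukin-6 acts through STAT3, and interleukin-1 through NF-κB and C/EBP factors, to raise proteins such as C-reactive protein and haptoglobin, while albumin and transthyretin fall. Complement is a cascade of plasma proteases. C1 or the mannose-binding lectin complex starts it, convertases built from C2, C3, C4 and factor B amplify it, the late components form a pore in membranes, and regulators such as factor I hold it back. PPARα agonists of the fibrate class are known to lower fibrinogen and C-reactive protein in plasma.

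**Figure D1:**
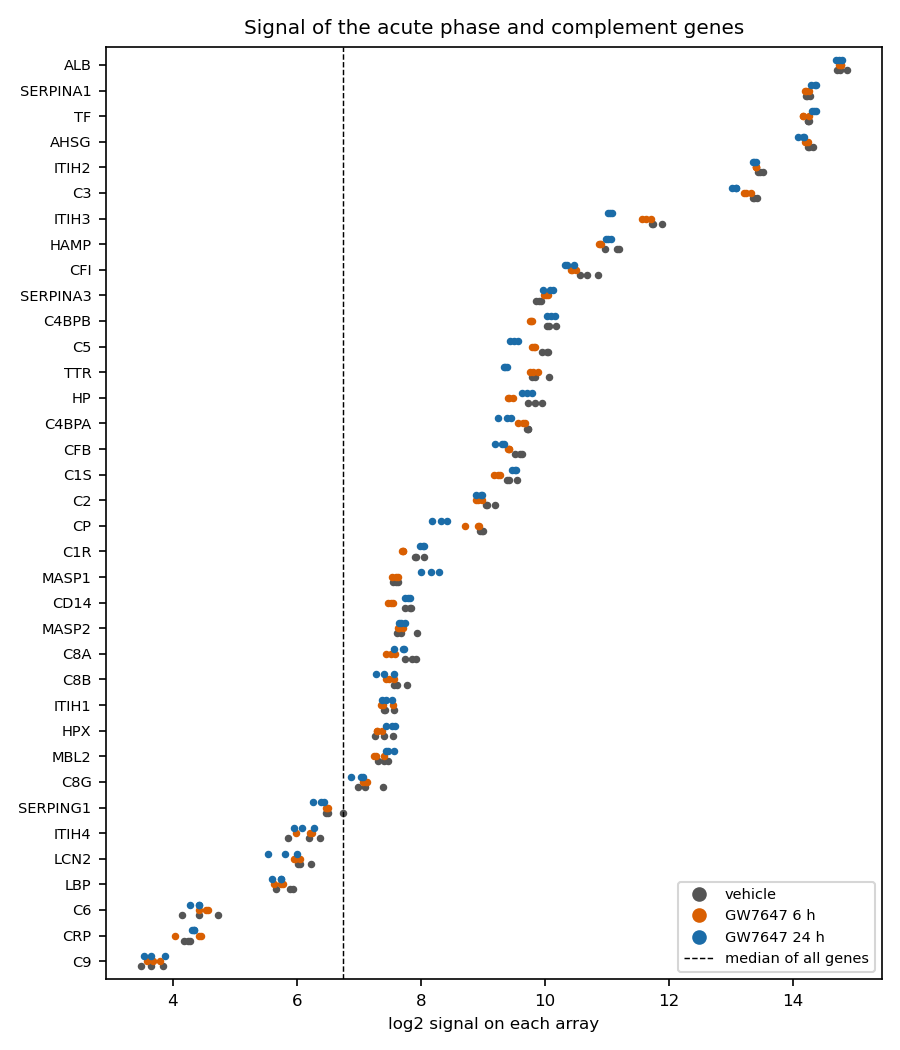
Log2 signal of the 36 genes on each of the 9 arrays, ordered by mean signal, with points coloured by group and a dashed line at the median of all genes (6.74). Signals run from 3.68 for C9 to 14.77 for ALB as means over the 9 arrays, and ITIH3, CP, TTR and MASP1 show 24 h arrays set apart from the others.

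Most of these genes gave a signal above that of the typical gene, and the line's liver markers were high. Mean signals ran from 3.68 to 14.77 log2 units over the 36 genes, 29 of them above the median of all genes (6.74). Levels of different genes rest on different probes and are not compared with one another beyond this rank. ALB, SERPINA1, TF, AHSG, ITIH2 and C3 lay above the 99th percentile of all genes. ALB had 14.87, 14.72 and 14.77 in vehicle. CRP, LBP, LCN2, ITIH4, C6, C9 and SERPING1 lay below the median signal. CRP, the pentraxin that gave the response its best known marker, had 4.18, 4.28 and 4.24 in vehicle and lay at percentile 17.0 of all genes. The 8 measured hepatocyte and hepatoma markers all lay above the median signal, at 9.98 or more, although FGB fell at 24 h. Markers of cells that the line should lack were mostly low: 7 of 8 macrophage, 9 of 10 neutrophil, 8 of 9 stellate cell and 7 of 8 endothelial genes lay below the median. Their exceptions were LYZ (11.93), CSF3R (7.34), COL1A1 (8.50) and PECAM1 (8.22). None of the markers on those 4 lists passed by limma in any of the 3 comparisons. At limma's unadjusted p under 0.05 at most 2 of a list did in either direction. Of all genes, 8.00% to 15.4% did so, depending on the comparison and direction.

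The promoters of 6 genes are given here, picked among the genes that fell in these data. C1R, CD14, C4BPB and C8A are the falls at 6 h for which a window was at hand. HP also fell at 6 h, but no window was found for it. C4BPA and ITIH3 fell at 24 h, the first as the neighbour of C4BPB and the second with the largest change. C4BPB and C4BPA lie next to each other on chromosome 1 and encode the chains of C4b-binding protein. Each sequence is the 250 bases upstream of a RefSeq transcription start (GRCh38.p14), printed 5′ to 3′ on the gene's strand. Capitals mark the matches to any of 7 letter patterns.

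C1R, chr12:7091894-7092143, minus strand: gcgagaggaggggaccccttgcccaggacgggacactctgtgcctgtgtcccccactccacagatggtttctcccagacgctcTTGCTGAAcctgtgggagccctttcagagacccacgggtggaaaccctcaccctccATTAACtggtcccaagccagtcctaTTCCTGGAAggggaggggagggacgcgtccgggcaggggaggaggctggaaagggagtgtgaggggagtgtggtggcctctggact
CD14, chr5:140633176-140633425, minus strand: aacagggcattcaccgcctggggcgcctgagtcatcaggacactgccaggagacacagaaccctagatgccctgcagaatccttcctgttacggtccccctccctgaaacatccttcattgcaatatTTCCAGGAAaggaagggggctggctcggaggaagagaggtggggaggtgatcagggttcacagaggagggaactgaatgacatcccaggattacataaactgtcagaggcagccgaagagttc
C4BPB, chr1:207089033-207089282, plus strand: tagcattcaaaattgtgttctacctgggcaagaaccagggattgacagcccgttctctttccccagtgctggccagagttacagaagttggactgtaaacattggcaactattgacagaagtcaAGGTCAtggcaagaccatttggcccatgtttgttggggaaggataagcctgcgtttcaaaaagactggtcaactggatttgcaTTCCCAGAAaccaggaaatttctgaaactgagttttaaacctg
C4BPA, chr1:207103983-207104232, plus strand: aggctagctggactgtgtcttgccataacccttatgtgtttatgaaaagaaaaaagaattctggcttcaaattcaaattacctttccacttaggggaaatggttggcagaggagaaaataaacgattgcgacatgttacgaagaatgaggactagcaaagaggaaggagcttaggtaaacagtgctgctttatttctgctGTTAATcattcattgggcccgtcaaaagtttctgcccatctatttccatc
C8A, chr1:56854547-56854796, plus strand: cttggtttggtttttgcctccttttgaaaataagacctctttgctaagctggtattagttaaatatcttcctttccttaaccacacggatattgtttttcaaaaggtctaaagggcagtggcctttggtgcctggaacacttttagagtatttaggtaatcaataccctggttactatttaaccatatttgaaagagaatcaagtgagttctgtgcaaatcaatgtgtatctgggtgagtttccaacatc
ITIH3, chr3:52794546-52794795, plus strand: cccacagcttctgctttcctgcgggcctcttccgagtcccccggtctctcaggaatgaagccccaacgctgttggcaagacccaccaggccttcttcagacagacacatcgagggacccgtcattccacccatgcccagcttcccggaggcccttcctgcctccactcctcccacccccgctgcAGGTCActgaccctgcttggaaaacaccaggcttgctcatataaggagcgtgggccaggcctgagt

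The patterns, searched on both strands, were the nuclear receptor core site AGGTCA, the start of its direct repeat AGGTCANAG, the STAT site TTCNNNGAA and its STAT3 form TTCNNGGAA, the C/EBP pattern TTGCNNAA, the HNF1 core site GTTAAT and the NF-κB core GGGNNTTTC. Each match to the direct repeat start or the STAT3 form is also a match to the shorter or looser pattern. RefSeq windows were at hand for 27 of the 36 genes, and C1R has 2 windows and C4BPB 3. The STAT3 form was present upstream of C1R, CD14, C4BPB, CFB, HAMP, ITIH4 and MASP2, which is 7 of 27 genes, against 4.78% of all 27305 genes with windows of this length. The looser STAT site was in 8 of 27 against 8.09%, the HNF1 core site in 7 against 7.50% and the C/EBP pattern in 8 against 11.0%. The core site AGGTCA was in 9 of 27 against 14.6%, and its direct repeat start was in TF alone, against 1.70%. The NF-κB core was in ITIH1 alone, against 5.05%. A match is only a run of letters, and binding was not measured here. In the printed windows the STAT3 form lies 86 bases upstream of the start in C1R, 123 in CD14 and 43 in C4BPB, while the C8A window holds no match to any of the 7 patterns. For C1R and C4BPB, the printed window is the only one of the gene's windows that holds the STAT3 form. The printed C1R window also holds a C/EBP match 167 bases and an HNF1 core site 111 bases upstream, and that of C4BPB an AGGTCA 126 bases upstream. The C1R window not printed holds only a C/EBP match, and the C4BPB windows not printed hold no match but AGGTCA. C4BPA holds an HNF1 core site 50 bases upstream and ITIH3 an AGGTCA 66 bases upstream.

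Every log2 change below is a difference between group means ± SE of a limma fit over all 9 arrays, and the intervals are 95% confidence intervals. A gene is said to rise or fall where the two-sided p from limma was under 0.05 after Benjamini-Hochberg adjustment across all 19775 genes. The labels do not say that replicates were separate cultures, so p-values measure the spread between these samples only, which may be technical. Both times were set against the same vehicle arrays, and the 6 h arrays also enter the comparison of 24 h with 6 h.

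After 6 h of GW7647, 5 of the 36 genes fell, 0 rose and 31 did not pass. The 5 were HP, C8A, C4BPB, CD14 and C1R, each lower by 1.19-fold to 1.32-fold. These are 13.9% of the genes, where 1.91% of all genes fell and 1.64% rose, 3.54% in all. All 5 were among the 29 of the 36 genes above the median signal, 17.2% of these, where 3.59% of all genes above the median fell and 2.75% rose. By limma's unadjusted p under 0.05, 0 of the 36 were higher and 13 lower, where 8.00% and 8.32% of all genes were. After 24 h, 8 genes fell, 1 rose and 27 did not pass. ITIH3, CP, TTR, C5, C4BPA, C3, CFI and CFB fell by 1.23-fold to 1.66-fold, and MASP1 rose 1.47-fold. The falls at 24 h are 22.2% of the 36 genes against 2.80% of all genes, and the rise 2.78% against 5.38%. Of the 29 above the median signal the falls are 27.6% and the rise 3.45%, against 4.95% and 9.36% of all genes above it. In all, 8.17% of genes passed at 24 h. By the unadjusted p, 2 of the 36 were higher and 14 lower, where 12.5% and 8.69% of all genes were.

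The median log2 change of the 36 genes was -0.09 at 6 h and -0.09 at 24 h, while that of all genes was 0.0039 and 0.0034. At 6 h, 32 of the 36 changes were below 0, against 48.5% of all genes, and at 24 h 25 were, against 48.9%. The 6 h arrays lay entirely below the vehicle arrays in 16 genes and entirely above in 1, where 10.3% and 10.5% of all genes did so. At 24 h they lay below in 14 and above in 5, where 8.95% and 14.0% of all genes did. Set against the vehicle mean, the median of the 36 genes was -0.02, 0.05 and -0.04 on the vehicle arrays. It was -0.08, -0.14 and -0.08 on the 6 h arrays and -0.07, -0.10 and -0.10 on the 24 h arrays. The treated arrays thus lay below the vehicle arrays at both times. The genes were chosen with earlier results of these data known, so these medians carry no test.

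The count at 6 h rested on few arrays. Leaving out 6 h replicate 2 gave 0 falls, 6 h replicate 1 gave 1, and 6 h replicate 3 or vehicle replicate 3 gave 2. Leaving out vehicle replicate 2 gave 3, as did the replicate number as a block. The 8 falls at 24 h became 7 at the fewest with any 1 array left out.

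**Figure D2:**
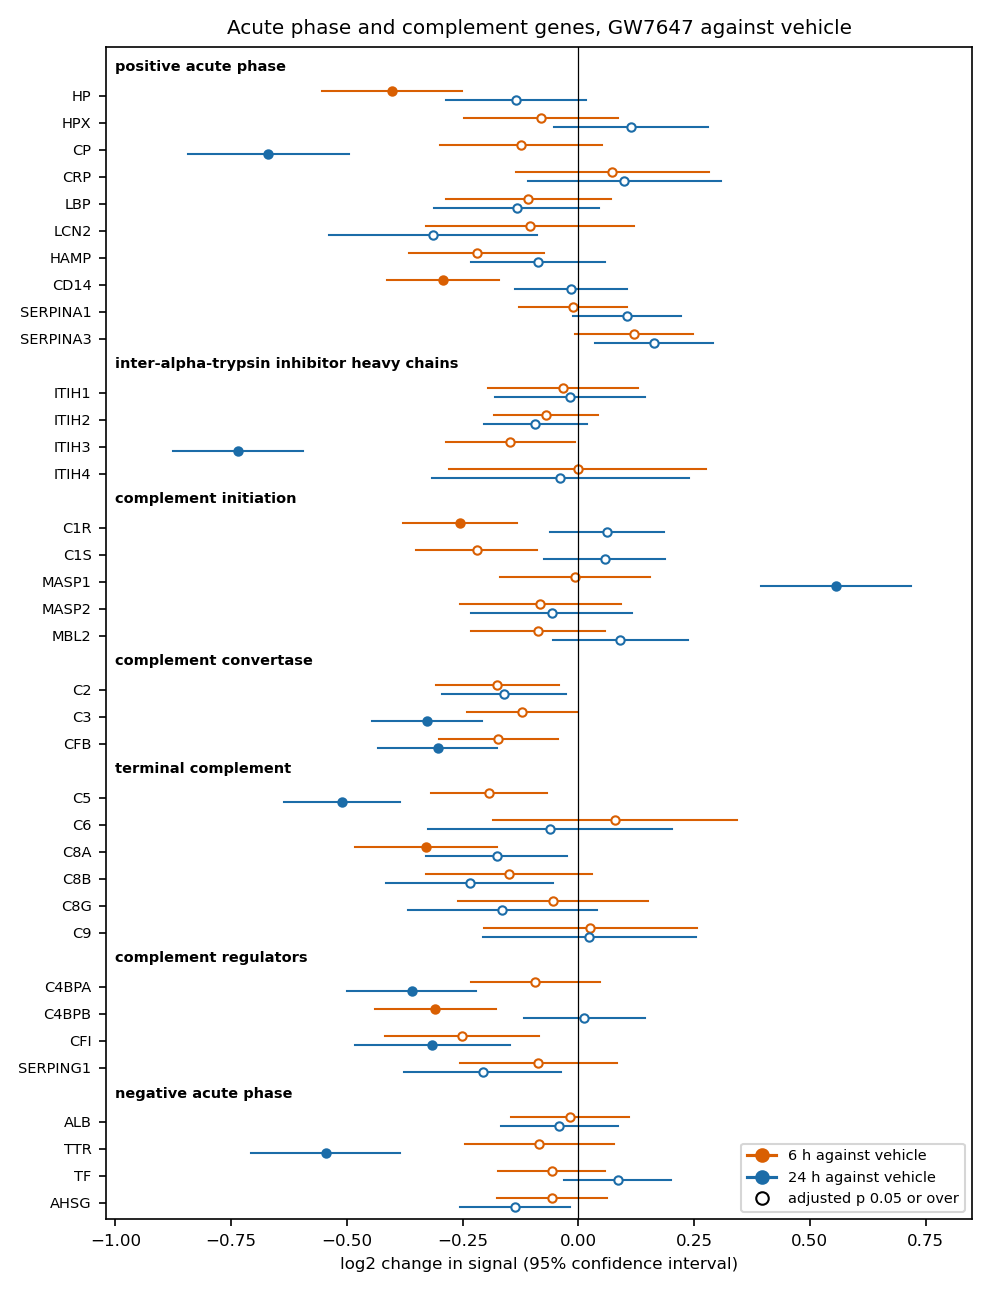
Log2 change of each of the 36 genes at 6 h (orange) and 24 h (blue) against vehicle, grouped by role, with 95% confidence intervals from limma and n = 3 arrays per group. Filled points passed an adjusted p under 0.05: 5 falls at 6 h, and 8 falls and 1 rise at 24 h.

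Among the positive acute phase proteins, which rise in plasma during inflammation, 2 of 10 measured genes fell at 6 h and 1 at 24 h. These are 20% and 10%, where 1.91% of all genes fell at 6 h and 2.80% at 24 h, and 5.38% rose at 24 h. The same shares of all genes apply to the counts of the other roles below. Each role holds few genes, so a count of 1 is a large share of it. Haptoglobin HP, which captures free hemoglobin, had 9.84, 9.95 and 9.73 log2 units in vehicle, 9.49, 9.42 and 9.41 at 6 h, and 9.63, 9.79 and 9.71 at 24 h. All 6 h arrays were below all others, whereas the 24 h and vehicle arrays overlapped. The 6 h change was -0.40 ± 0.07 (interval -0.55 to -0.25, adjusted p = 0.00969), and the 24 h change -0.13 ± 0.07 (adjusted p = 0.296). From 6 h to 24 h HP rose by 0.27 ± 0.07 (adjusted p = 0.0246). Leaving out 6 h replicate 2 ended the call of a fall (-0.39, adjusted p = 0.0530). The later rise was lost when any of the 6 h arrays, or 24 h replicate 2 or 3, was left out (adjusted p up to 0.0920), and after quantile normalization (0.21, adjusted p = 0.0561). HP was read by 1 probe set, whose name ends in _s_at for shared probes. The haptoglobin-related gene HPR had -0.42 ± 0.10 at 6 h, which did not pass (adjusted p = 0.0554). Whether the HP probe set also reads HPR was not tested.

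CD14, the co-receptor that receives lipopolysaccharide from the plasma protein LBP, had the same order of groups. Its signals were 7.75, 7.85 and 7.83 in vehicle, 7.55, 7.52 and 7.48 at 6 h, and 7.80, 7.83 and 7.74 at 24 h. The 6 h arrays stood apart, and the other groups overlapped. CD14 fell by 0.29 ± 0.05 log2 units at 6 h (adjusted p = 0.0159) and rose by 0.28 ± 0.05 from 6 h to 24 h (adjusted p = 0.00674), with -0.02 ± 0.05 at 24 h against vehicle (adjusted p = 0.917). The fall at 6 h was lost when vehicle replicate 3 or any of the 6 h arrays was left out (adjusted p up to 0.0693). CD14 is also a marker of monocytes. Beside it, the summed linear signal of 8 macrophage and monocyte markers was 4270 to 4650 in vehicle, 4030 to 4100 at 6 h and 3710 to 4500 at 24 h. LYZ carried most of that sum, at 11.98 to 12.11 log2 units in vehicle and 11.89 to 11.91 at 6 h. PTPRC, the pan-leukocyte marker, was at 4.18 to 4.31 in vehicle and 4.22 to 4.27 at 6 h. The part of such cells in the CD14 result was not tested. LBP itself had -0.11 ± 0.08 at 6 h and -0.13 ± 0.08 at 24 h (adjusted p = 0.569 and 0.393).

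Ceruloplasmin CP, the copper protein of plasma that oxidises iron, fell late. It had 8.99, 8.95 and 9.01 in vehicle, 8.94, 8.71 and 8.92 at 6 h, and 8.33, 8.43 and 8.18 at 24 h. The 24 h arrays lay below all the others. CP changed by -0.67 ± 0.08 at 24 h (interval -0.84 to -0.49, adjusted p = 0.000566) and by -0.12 ± 0.08 at 6 h (adjusted p = 0.494). The change from 6 h to 24 h was -0.55 ± 0.08 (adjusted p = 0.00109). Of its other 3 probe sets, 2 also fell at 24 h (-0.74 and -0.59), and the dimmest had -0.16 (adjusted p = 0.323 over all probe sets). Between 6 h and 24 h, only the first of these fell (-0.61, adjusted p = 0.00195). The second and the dimmest had -0.40 and -0.18 and did not pass (adjusted p = 0.102 and 0.21).

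The other 7 positive acute phase genes passed in no comparison. Hepcidin HAMP, the hormone that limits iron export from cells, had 10.97, 11.17 and 11.20 in vehicle, 10.89, 10.88 and 10.91 at 6 h, and 10.99, 11.03 and 11.07 at 24 h. Its 6 h arrays lay below its vehicle arrays, but the change of -0.22 ± 0.07 did not pass (adjusted p = 0.110). It passed without vehicle replicate 1, at -0.29 (adjusted p = 0.0325). LCN2, the lipocalin that withholds iron-binding siderophores from bacteria, had 6.22, 6.02 and 6.05 in vehicle, 6.05, 5.98 and 5.95 at 6 h, and 6.00, 5.54 and 5.82 at 24 h. The 24 h arrays were below vehicle, but that change of -0.31 ± 0.10 did not pass (adjusted p = 0.0904), though it did with the replicate number as a block (adjusted p = 0.0468) and without 24 h replicate 1 (-0.42, adjusted p = 0.0291). CRP had 4.43, 4.04 and 4.45 at 6 h and 4.34, 4.31 and 4.34 at 24 h. Its changes were 0.07 ± 0.09 at 6 h and 0.10 ± 0.09 at 24 h (adjusted p = 0.763 and 0.614). HPX, which binds heme, had -0.08 ± 0.08 and 0.11 ± 0.08 (adjusted p = 0.660 and 0.440).

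The protease inhibitors SERPINA1 and SERPINA3 were not among the falls. SERPINA3, or alpha-1-antichymotrypsin, had 9.90, 9.94 and 9.87 in vehicle, 10.02, 10.06 and 9.99 at 6 h, and 10.08, 10.14 and 9.98 at 24 h. Both treated groups lay above vehicle on every array, although changes of 0.12 ± 0.06 and 0.16 ± 0.06 did not pass (adjusted p = 0.336 and 0.120). SERPINA1, or alpha-1-antitrypsin, had 14.29, 14.21 and 14.23 in vehicle, 14.22, 14.21 and 14.26 at 6 h, and 14.38, 14.37 and 14.29 at 24 h. Its 24 h arrays were no lower than the highest vehicle array, and the change was 0.10 ± 0.05 (adjusted p = 0.289). A dimmer SERPINA1 probe set with a mean signal of 9.65 rose by 0.37 ± 0.06 at 24 h (adjusted p = 0.00603 over all probe sets) and by 0.52 ± 0.06 from 6 h to 24 h (adjusted p = 0.00051).

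The heavy chains of inter-alpha-trypsin inhibitor, which become joined to hyaluronan, had 1 fall among 4 genes. ITIH3 had 11.73, 11.90 and 11.74 in vehicle, 11.64, 11.58 and 11.71 at 6 h, and 11.02, 11.05 and 11.09 at 24 h. Every 24 h array was below every other array. The 24 h change of -0.74 ± 0.06 (interval -0.88 to -0.60, adjusted p = 5.87e-05) was the largest in size among the 36 genes in any comparison. From 6 h to 24 h the change was -0.59 ± 0.06 (adjusted p = 0.000199). ITIH1 and ITIH4 flank ITIH3 on chromosome 3 with no coding gene starting between. At 24 h they had -0.02 ± 0.07 and -0.04 ± 0.13 (adjusted p = 0.924 and 0.906), with intervals of -0.18 to 0.14 and -0.32 to 0.24 that do not reach the ITIH3 value. By mean signal ITIH1 and ITIH4 lay at percentiles 57.8 and 42.3 of all genes, and ITIH3 at 96.1. Whether the lower signals hid a change in either neighbour was not tested. ITIH2, on another chromosome, had -0.09 ± 0.05 (adjusted p = 0.332).

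**Figure D3:**
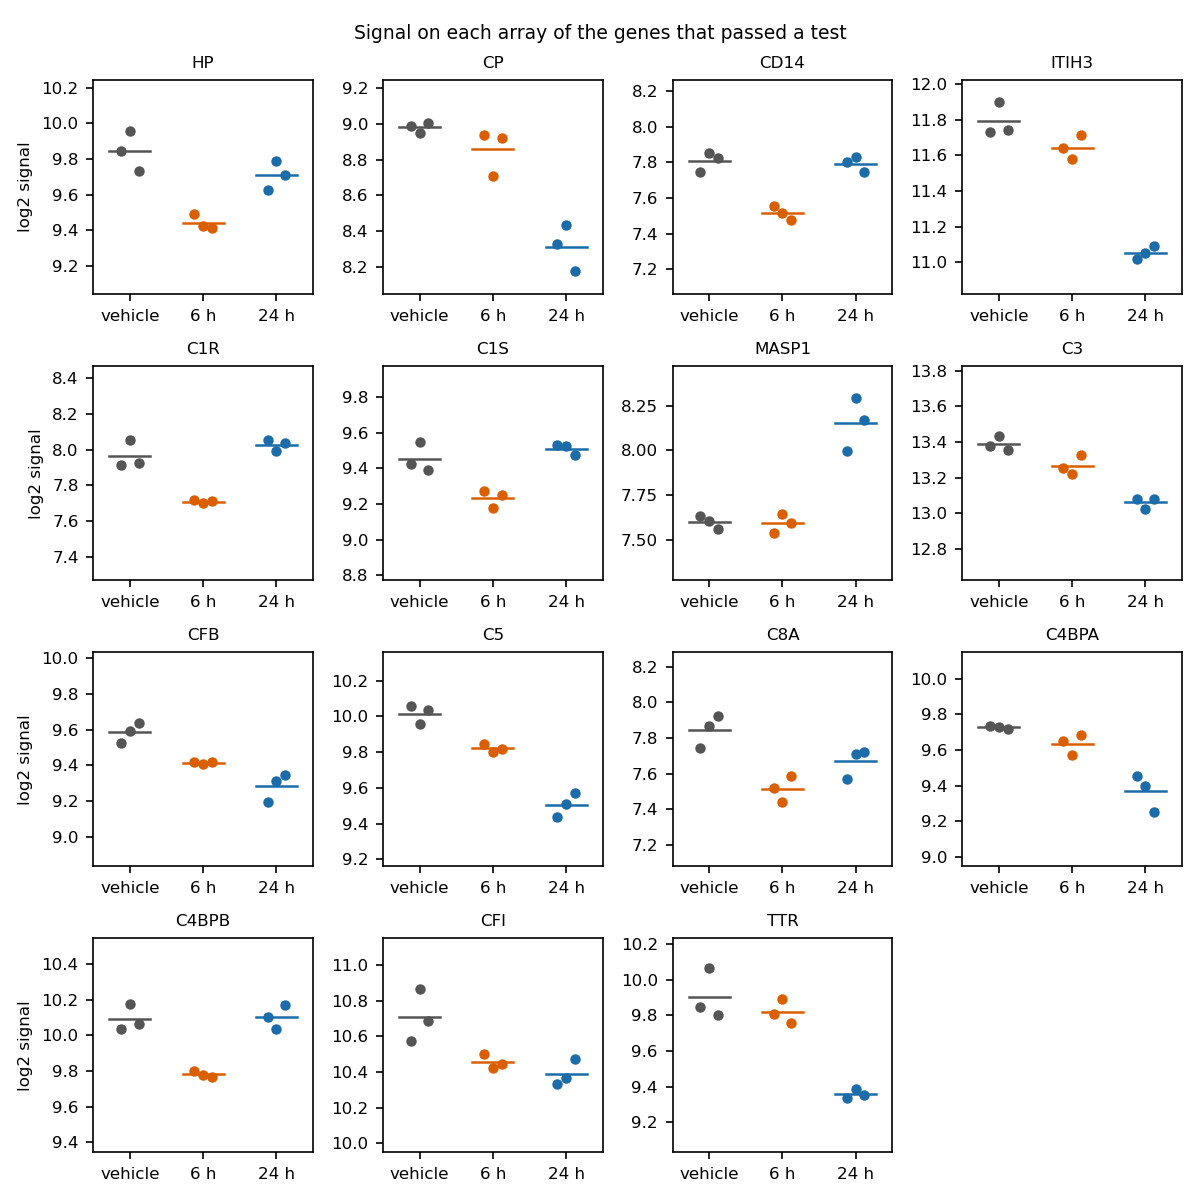
Log2 signal on each array (points) and group mean (horizontal lines) for the 15 genes that passed in at least 1 of the 3 comparisons; each panel spans the same height of log2 units. In HP, CD14, C1R, C1S, C8A and C4BPB the 6 h mean is the lowest, in ITIH3, CP, TTR, C5, C3, CFB, CFI and C4BPA the 24 h mean is the lowest, and in MASP1 the 24 h arrays are the highest.

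Among the 5 genes that start complement, C1R fell at 6 h and MASP1 rose at 24 h. C1R and C1S encode the proteases of the C1 complex and are adjacent on chromosome 12. C1R had 7.91, 8.06 and 7.92 in vehicle, 7.72, 7.70 and 7.71 at 6 h, and 8.05, 7.99 and 8.04 at 24 h. C1S had 9.43, 9.55 and 9.39 in vehicle, 9.28, 9.18 and 9.25 at 6 h, and 9.53, 9.52 and 9.48 at 24 h. In each gene the 6 h arrays lay below both other groups, which overlapped. The 6 h change was -0.26 ± 0.06 for C1R (adjusted p = 0.0329) and -0.22 ± 0.06 for C1S, which did not pass (adjusted p = 0.0742). From 6 h to 24 h C1R rose by 0.32 ± 0.06 (adjusted p = 0.00346) and C1S by 0.28 ± 0.06 (adjusted p = 0.0102). The C1R fall was lost when vehicle replicate 2 or 3, any of the 6 h arrays, or 24 h replicate 3 was left out (adjusted p up to 0.124). It was also lost with the replicate block (0.0818), after quantile normalization (0.0513) and when the fit held just the 2 groups (0.0715). Leaving out 6 h replicate 2 ended the call of the C1S rise (0.25, adjusted p = 0.0533). A second C1S probe set had -0.35 ± 0.10 at 6 h (adjusted p = 0.110 over all probe sets). Its change from 6 h to 24 h, 0.34 ± 0.10, did not pass either (adjusted p = 0.0522).

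MASP1 encodes a protease of the lectin pathway. It had 7.63, 7.60 and 7.56 in vehicle, 7.54, 7.64 and 7.59 at 6 h, and 8.00, 8.29 and 8.17 at 24 h. The 24 h arrays were above all others, and the vehicle and 6 h arrays overlapped. MASP1 rose by 0.56 ± 0.07 at 24 h against vehicle (interval 0.39 to 0.72, adjusted p = 0.00112) and by 0.56 ± 0.07 against 6 h (adjusted p = 0.000593). The rise rests on 1 of 5 probe sets: the other 4 had 0.18, 0.16, 0.029 and -0.017 at 24 h against vehicle, none of which passed, and their mean with it gave 0.18 (adjusted p = 0.104). Against 6 h, the next brightest probe set also rose (0.27, adjusted p = 0.0306). The remaining ones had 0.26, 0.053 and 0.044 (adjusted p = 0.0647, 0.744 and 0.875), and none of them passed. The genes of the lectin itself and its other protease, MBL2 and MASP2, had 0.09 ± 0.07 and -0.06 ± 0.08 at 24 h (adjusted p = 0.484 and 0.746).

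All 3 convertase genes had lower signals than vehicle on every treated array at both times, and C3 and CFB fell at 24 h. Of all genes, 10.3% lay entirely below vehicle at 6 h and 8.95% at 24 h. None of the 3 passed at 6 h, and C2 passed at neither time. C3, the central component of all complement pathways, had 13.38, 13.43 and 13.35 in vehicle, 13.26, 13.22 and 13.32 at 6 h, and 13.08, 13.03 and 13.08 at 24 h. The groups did not overlap. C3 changed by -0.12 ± 0.05 at 6 h (adjusted p = 0.288) and by -0.33 ± 0.05 at 24 h (adjusted p = 0.00408). The step from 6 h to 24 h was -0.20 ± 0.05 (adjusted p = 0.0283). That step was lost when any of the 6 h or 24 h arrays was left out (adjusted p up to 0.111), with the replicate block (0.0662) and after median centring (-0.17, adjusted p = 0.0633).

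Factor B, the protease of the alternative pathway convertase, showed the same order. CFB had 9.52, 9.60 and 9.64 in vehicle, 9.42, 9.41 and 9.42 at 6 h, and 9.19, 9.31 and 9.34 at 24 h. It fell by 0.30 ± 0.06 at 24 h (adjusted p = 0.00897), with -0.17 ± 0.06 at 6 h (adjusted p = 0.154). A dimmer CFB probe set without shared probes had -0.08 at 24 h (adjusted p = 0.635 over all probe sets), and the mean of both gave -0.19 (adjusted p = 0.0702). C2, the classical pathway counterpart that lies close to CFB on chromosome 6, had -0.17 ± 0.06 at 6 h and -0.16 ± 0.06 at 24 h (adjusted p = 0.167 and 0.145). A second C2 probe set, with a mean signal of 7.03, rose by 0.65 ± 0.11 from 6 h to 24 h (adjusted p = 0.00271 over all probe sets), where the brighter one had 0.01 ± 0.06.

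Of the 6 terminal components, C8A fell at 6 h and C5 at 24 h. C5, whose cleavage opens the terminal pathway, had 10.06, 9.96 and 10.04 in vehicle, 9.84, 9.80 and 9.82 at 6 h, and 9.43, 9.51 and 9.57 at 24 h. The groups were fully separate and in descending order. Its change was -0.19 ± 0.06 at 6 h (adjusted p = 0.0998) and -0.51 ± 0.06 at 24 h (interval -0.64 to -0.39, adjusted p = 0.000389), and from 6 h to 24 h it fell by 0.32 ± 0.06 (adjusted p = 0.00374).

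C8A and C8B are adjacent on chromosome 1 and encode chains of the same component, C8. C8A had 7.74, 7.87 and 7.92 in vehicle, 7.52, 7.44 and 7.59 at 6 h, and 7.57, 7.71 and 7.72 at 24 h. Both treated groups lay below vehicle. The change was -0.33 ± 0.07 at 6 h (adjusted p = 0.0269) and -0.18 ± 0.07 at 24 h (adjusted p = 0.163). Leaving out any of vehicle replicates 2 and 3 and 6 h replicates 1 and 2 ended the call (adjusted p up to 0.129). C8B had -0.15 ± 0.08 and -0.24 ± 0.08 (adjusted p = 0.408 and 0.113), and C8G, the third chain, -0.05 ± 0.09 and -0.16 ± 0.09 (adjusted p = 0.828 and 0.351). C6 and C9 had mean signals of 4.44 and 3.68 near the bottom of the range, and their changes against vehicle lay between -0.06 and 0.08.

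Of the 4 regulators of complement, C4BPB fell at 6 h, and C4BPA and CFI fell at 24 h. C4b-binding protein, which helps factor I to inactivate C4b, is built from chains encoded by the adjacent genes C4BPA and C4BPB. C4BPB had 10.03, 10.18 and 10.07 in vehicle, 9.80, 9.78 and 9.77 at 6 h, and 10.11, 10.04 and 10.17 at 24 h. C4BPA had 9.73, 9.73 and 9.72 in vehicle, 9.65, 9.57 and 9.68 at 6 h, and 9.45, 9.40 and 9.25 at 24 h. C4BPB was thus lowest at 6 h, with the 24 h arrays among those of vehicle, and C4BPA was lowest at 24 h with no overlap between groups.

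C4BPB fell by 0.31 ± 0.06 at 6 h (adjusted p = 0.0169) and had 0.01 ± 0.06 at 24 h (adjusted p = 0.934). C4BPA had -0.09 ± 0.06 at 6 h (adjusted p = 0.527) and fell by 0.36 ± 0.06 at 24 h (adjusted p = 0.00557). From 6 h to 24 h C4BPB rose by 0.32 ± 0.06 (adjusted p = 0.00446) and C4BPA fell by 0.27 ± 0.06 (adjusted p = 0.0170), and the intervals of 0.19 to 0.45 and -0.41 to -0.13 do not meet. The C4BPB fall at 6 h was lost when any of the 6 h arrays was left out (adjusted p up to 0.0765) and with the replicate block (0.0502). Leaving out 6 h replicate 1, 6 h replicate 3 or 24 h replicate 3 ended the call of the C4BPA fall between the times (up to 0.0697).

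Factor I, the protease CFI, had 10.57, 10.86 and 10.68 in vehicle, 10.50, 10.42 and 10.44 at 6 h, and 10.33, 10.37 and 10.47 at 24 h. Both treated groups lay below vehicle, and they overlapped each other. Its change was -0.25 ± 0.08 at 6 h (adjusted p = 0.111) and -0.32 ± 0.08 at 24 h (adjusted p = 0.0280). Leaving out any of vehicle replicates 2 and 3 and 24 h replicates 1 and 2 ended the call (adjusted p up to 0.0922), as did a fit of just the 2 groups (0.0815). A second CFI probe set fell by 0.31 ± 0.05 at 24 h (adjusted p = 0.00692 over all probe sets). The C1 inhibitor SERPING1 had -0.21 ± 0.08 at 24 h (adjusted p = 0.140).

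Of the 4 negative acute phase proteins, which decline in plasma during inflammation, TTR fell at 24 h. Transthyretin carries thyroxine and the retinol-binding protein. TTR had 9.85, 10.07 and 9.80 in vehicle, 9.81, 9.89 and 9.76 at 6 h, and 9.34, 9.39 and 9.35 at 24 h. The vehicle and 6 h arrays overlapped, and all 24 h arrays were lower. Its change was -0.08 ± 0.07 at 6 h (adjusted p = 0.626) and -0.55 ± 0.07 at 24 h (interval -0.71 to -0.38, adjusted p = 0.00116), and from 6 h to 24 h -0.46 ± 0.07 (adjusted p = 0.00184).

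Albumin, which holds much of plasma's osmotic pressure, the iron carrier transferrin (TF) and fetuin-A (AHSG) passed in no comparison. ALB had 14.78, 14.78 and 14.76 at 6 h and 14.74, 14.80 and 14.70 at 24 h, overlapping the vehicle arrays given above. Its change was -0.02 ± 0.06 at 6 h (interval -0.14 to 0.11) and -0.04 ± 0.06 at 24 h (interval -0.17 to 0.09), with adjusted p = 0.915 and 0.752. An ALB probe set of mean signal 9.36 fell by 0.47 ± 0.08 at 6 h (adjusted p = 0.0108 over all probe sets), had -0.17 ± 0.08 at 24 h and rose by 0.31 ± 0.08 between them (adjusted p = 0.0295), whereas another of mean signal 8.75 had 0.28 ± 0.13 at 6 h (adjusted p = 0.377). TF had 0.09 ± 0.05 and AHSG -0.14 ± 0.05 at 24 h (adjusted p = 0.398 and 0.162).

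**Figure D4:**
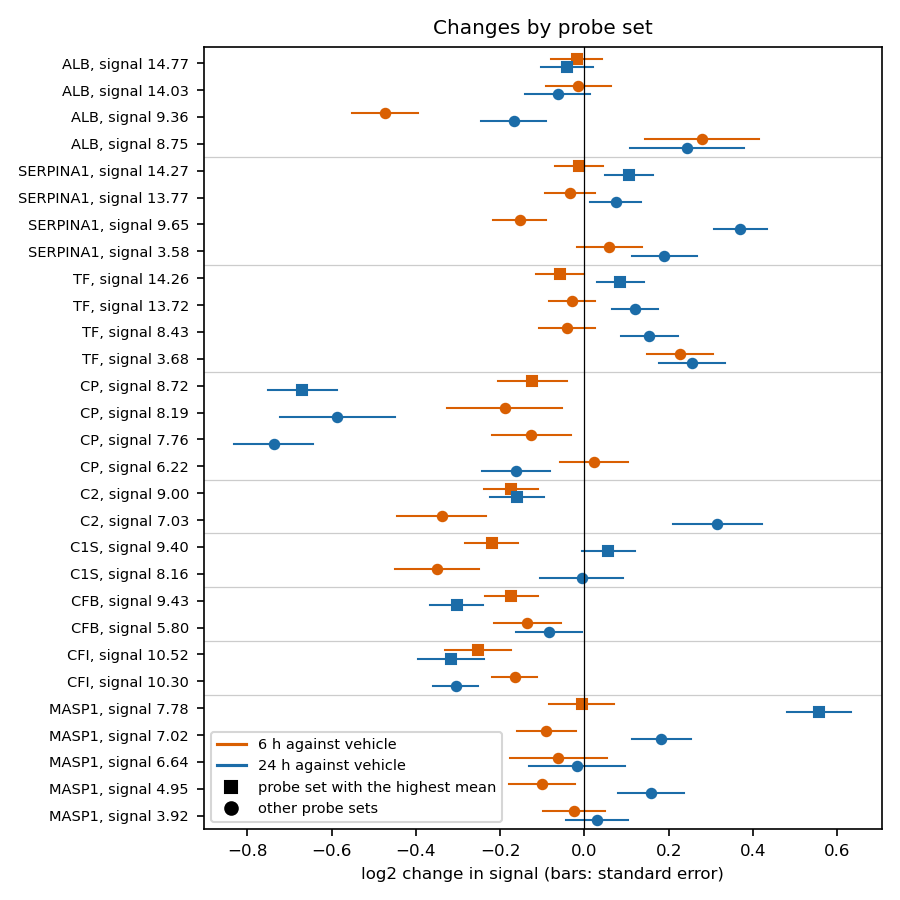
Log2 change at 6 h (orange) and 24 h (blue) against vehicle for every probe set of 9 genes with several, with bars of 1 SE and squares for the probe set that stands for the gene. The CP and CFI probe sets fall together at 24 h apart from the dimmest of CP, while MASP1, ALB, SERPINA1, C2 and CFB differ between probe sets.

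Comparing 24 h with 6 h directly tests the differences in time. Of the 36 genes, 6 rose and 6 fell, which is 16.7% in each direction, where 9.23% of all genes rose and 4.57% fell. All 12 were among the 29 genes above the median signal, 20.7% of these in each direction, where 16.9% of all genes above it rose and 7.45% fell. The rises were HP, CD14, C1R, C1S, C4BPB and MASP1, and the falls ITIH3, CP, TTR, C5, C4BPA and C3. The share of rises lay close to that background. The 24 h arrays lay entirely above the 6 h arrays in 11 genes and entirely below in 10, where 19.2% and 13.8% of all genes did so. The median change of the 36 genes was -0.01, and that of all genes -0.0097, with 19 of the 36 and 53.0% of all genes below 0.

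Other genes of these systems were counted on lists that, like the 36 genes, were written with earlier results known. Single genes of these lists were read on the brightest probe set, without the checks by left-out arrays or other probe sets given for the 36 genes. Of 48 further acute phase and complement genes, 36 were measured. At 6 h there were 4 falls, 0 rises and 32 genes that passed neither way, with a median of -0.07, and by limma's unadjusted p under 0.05 1 was higher and 13 lower. The falls are 11.1% of the 36, against 1.91% of all genes. By the unadjusted p, 8.00% of all genes were higher and 8.32% lower. At 24 h there were 7 falls (19.4%, against 2.80% of all genes) and 2 rises (5.56%, against 5.38%), with a median of -0.08. The largest changes at 24 h were those of the fibrinogen chains FGB (-0.67 ± 0.06, adjusted p = 6.87e-05), FGA (-0.54 ± 0.05) and FGG (-0.44 ± 0.06) and of the protease inhibitor A2M (-0.40 ± 0.05). The 4 falls at 6 h were named for being few after their values were seen. They were the lectin COLEC11 (-0.32 ± 0.06, adjusted p = 0.0116), CPN2 (-0.31 ± 0.07, adjusted p = 0.0384), FGA (-0.25 ± 0.05, adjusted p = 0.0247) and the cortisol carrier SERPINA6 (-0.24 ± 0.06, adjusted p = 0.0398). SERPINA6 then rose, by 0.38 ± 0.06 at 24 h against vehicle (adjusted p = 0.00189) and by 0.62 ± 0.06 against 6 h (adjusted p = 5.87e-05).

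Of 21 measured genes that carry cytokine signals to the acute phase genes, 1 rose and 2 fell at 6 h, and 1 rose and 0 fell at 24 h. These are 4.76% and 9.52% at 6 h, where 1.64% of all genes rose and 1.91% fell, and 4.76% at 24 h, where 5.38% rose. STAT3 had 10.84, 10.80 and 10.84 in vehicle, 10.39, 10.40 and 10.37 at 6 h, and 10.82, 10.91 and 10.68 at 24 h. It fell by 0.44 ± 0.06 at 6 h (adjusted p = 0.00364) and rose by 0.41 ± 0.06 from 6 h to 24 h (adjusted p = 0.00143). The interleukin-1 receptor IL1R1 had 8.82, 8.70 and 8.71 in vehicle, 8.26, 8.21 and 8.24 at 6 h, and 8.85, 9.01 and 8.86 at 24 h. It fell by 0.51 ± 0.06 at 6 h (adjusted p = 0.00154) and rose by 0.67 ± 0.06 afterwards (adjusted p = 8.30e-05). In both genes the 6 h arrays were the lowest, and the part of either in the changes of the 36 genes was not tested. NFKBIA, the inhibitor of NF-κB, rose at 6 h (0.35 ± 0.05, adjusted p = 0.00415), and the transcription factor CEBPD rose at 24 h (0.40 ± 0.07, adjusted p = 0.00699).

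Around hepcidin, 1 of 18 measured genes of iron control rose and 0 fell at 6 h, and 0 rose and 2 fell at 24 h. The rise is 5.56% of the list against 1.64% of all genes, and the falls 11.1% against 2.80%. ID1, a target of the BMP pathway that drives hepcidin, rose by 0.57 ± 0.08 at 6 h (adjusted p = 0.00351), while HAMP had the change of -0.22 ± 0.07 given above. At 24 h TFR2, the iron sensor of hepatocytes, fell by 0.49 ± 0.07 (adjusted p = 0.00117), and so did SLC40A1, the iron exporter that hepcidin removes from the membrane (-0.49 ± 0.06, adjusted p = 0.000699). None of 9 complement receptors passed by limma in any comparison. At limma's unadjusted p under 0.05, 1 was lower at 24 h against vehicle, where 8.69% of all genes were. Their mean signals were 3.28 to 6.31, below the median of all genes.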

How the data were processed

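Total RNA of HepG2 cells was hybridised to 9 Affymetrix arrays, 3 per group. The authors deposited log2 signals per probe set, made by RMA per the submitters' processing notes. The sources used here name neither software version nor chip definition. Of 54675 probe sets, 62 controls were left out, and 41091 name 1 gene symbol in the platform annotation, 1801 several and 11721 none. The brightest probe set by mean signal stood for each of 19775 genes. The deposited values were tested as they stand, with limma 3.58.1 (lmFit and eBayes) in R 4.3.3, without a block, over all 3 groups, with Benjamini-Hochberg adjustment over all genes and a threshold of 0.05. The fit has 6 residual degrees of freedom, 11.0 with the prior, and a median SE of 0.072 log2 units; the number of arrays limits the precision. An exact permutation test of 3 against 3 cannot go below a p of 0.10, so none is given. The procedure was tested on simulated data. Changes of other probe sets come from the same fit over all probe sets, with p-values adjusted over them.

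The 36 genes, their roles and the wider lists were chosen with earlier results of these data known. Array values were to be given for each gene that passed a test or had one of the 3 largest changes of a comparison, and for ALB, TTR, SERPINA1, C3, CRP, HAMP, LCN2 and CD14; neighbouring genes were to be set side by side. From each wider list, up to 4 genes that passed with the largest changes were to be named. Alternatives were each array left out, a replicate block, a fit of just the 2 groups, array weights, a robust prior with an intensity trend, a stricter threshold of 0.01, and a filter at the median signal. The values were also quantile normalized or centred on each array's median, probe sets of a gene averaged, and those with shared probes (names ending in _s_at or _x_at) dropped. Deviations of same-numbered arrays of different groups had correlations of -0.201 to 0.086 in 9 pairs, and those of differently numbered arrays -0.242 to 0.245. With 3 arrays per group, this cannot show whether equal numbers share a culture. The labels do not say so either, and the main fit therefore has no block. Promoter windows are from RefSeq, GRCh38.p14.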

Additional observations from a re-analysis of the deposited data

Results flagged for a closer look

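For 12 of the 36 genes the change against vehicle at 24 h differed from that at 6 h, by limma's test of the 24 h arrays against the 6 h arrays at an adjusted p under 0.05. Of all genes, 13.8% passed that test. On the log2 scale, 24 h minus 6 h was 0.27 for HP, 0.28 for CD14, 0.32 for C1R, 0.28 for C1S, 0.32 for C4BPB and 0.56 for MASP1. It was -0.55 for CP, -0.59 for ITIH3, -0.20 for C3, -0.32 for C5, -0.27 for C4BPA and -0.46 for TTR. The differences of HP, C1S, C3 and C4BPA did not pass without some of the arrays, as given with each gene. The other 8 passed with any 1 array left out, on the probe set that stands for the gene. Some other probe sets of MASP1 and CP did not pass, as given with those genes. Groups of 3 arrays are too small for a check of single arrays that stand apart.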

How the results depend on the processing

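With any 1 array left out, the falls at 6 h numbered 0 to 6, those at 24 h 7 to 8, and from 6 h to 24 h there were 4 to 6 rises and 4 to 6 falls. The 5 falls at 6 h became 3 with the replicate block, 9 with an intensity trend and robust prior, 9 among genes above the median signal, 2 without shared probe sets and 1 at an adjusted p under 0.01. The added falls in both counts of 9 were HAMP, C1S, C5 and CFI. Leaving out shared probe sets removes HP, C1R, C8A and C4BPB, which have no other probe set, so those calls could not be made; the 2 falls left were CD14 and, newly passing on another probe set, ALB (-0.47). The rise at 24 h became 2 with the trend and robust prior, 2 among genes above the median signal and 2 without shared probe sets, the added gene being SERPINA1, SERPINA3 and SERPINA1 in turn. The median change of the 36 genes was -0.14 to -0.079 at 6 h, -0.14 to -0.068 at 24 h and -0.03 to 0.01 from 6 h to 24 h with any 1 array left out. It was -0.12 at 6 h among genes above the median signal, and 0.020 from 6 h to 24 h after median centring. From 6 h to 24 h, ALB reversed to 0.31 on the only probe set without shared probes. Each other probe set on its own was added after the data were seen: ALB again gave 0.31 there, and 1 MASP1 probe set gave -0.017 at 24 h. No cause of these moves was tested beyond the removed probe sets. Over all genes, quantile normalization turned 1826 rises and 903 falls from 6 h to 24 h into 1457 and 1207, and median centring into 2175 and 653; against vehicle at 24 h 1063 and 553 became 1031 and 731, or 1087 and 411; at 6 h 324 and 377 became 419 and 328, or 255 and 416. The signals are on a log2 scale already, so a pseudocount did not apply.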

Other observations

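Some relatives of the 36 genes share their probe sets and so belong in no test of a single gene. A probe set for C4A and C4B, the paralogous genes of the fourth component, had 11.76, 12.10 and 11.84 log2 units in vehicle, 11.56, 11.47 and 11.63 at 6 h, and 11.45, 11.46 and 11.56 at 24 h. All treated arrays lay below the vehicle arrays. A second such probe set averaged 10.46 ± 0.06 with vehicle, 10.21 ± 0.08 after 6 h and 10.12 ± 0.06 after 24 h (SD, n = 3). The third, near the bottom of the signal range, had 4.29 ± 0.24, 4.22 ± 0.04 and 4.30 ± 0.06 and overlapped between groups. A probe set for the orosomucoid genes ORM1 and ORM2 had 13.70 ± 0.03, 13.75 ± 0.01 and 13.75 ± 0.06 in the same order (SD, n = 3), and another had means of 12.13, 12.19 and 12.25. A probe set for the serum amyloid A genes SAA1 and SAA2 had means of 6.20, 6.19 and 6.04, and another 5.03, 4.93 and 5.01.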
